A study of Mus musculus with 12 samples.

Results

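Expression of 9 complement genes was examined in macrophages sorted from mouse tumours: C1qa, C1qb, C1qc, C3, C4b, Cfb, Cfp, C3ar1 and C5ar1. The genes were chosen as complement components and receptors, with earlier results of these data known, and their rows were taken by gene symbol. They are 9 of the 24346 symbols in each expression table. All 9 passed the filter on low values that left 11808 genes for testing. The study took tumour-associated macrophages from mice with an Arg1-RFP reporter, in which red fluorescence (RFP) reads out arginase 1, the enzyme that splits arginine into ornithine and urea. The mice bore B16F10, a mouse melanoma line, or MC38, a mouse colon carcinoma line. Sorted cells were CD45+ and carried MHCII, F4/80 and CD11b but none of Ly6C, Ly6G, NK1.1, B220 or CD90.2, and they were split into RFP+ and RFP-. The 4 groups were B16F10 RFP+, B16F10 RFP-, MC38 RFP+ and MC38 RFP-, with 3 bulk RNA-seq libraries each and no other allele, treatment, age or time in the labels. All 4 groups carry the reporter and come from tumours, so neither untreated nor tumour-free tissue serves as a control. Library titles carry a number (12, 11 and 3 in B16F10, 1 to 3 in MC38) that stands once in each gate.

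Complement is a cascade of serum and tissue proteins that marks surfaces for uptake and releases peptides that attract and activate leukocytes. In the classical pathway C1q, built from the chains encoded by C1qa, C1qb and C1qc, binds antibody or dying cells and leads to cleavage of C4 and C2. In the alternative pathway factor B (Cfb) joins C3b to form the enzyme that cleaves more C3, and properdin (Cfp) stabilises that enzyme. The fragments C3a and C5a act on the receptors encoded by C3ar1 and C5ar1. The liver makes most serum complement, while macrophages are known as a main source of C1q and also make properdin, factor B and C3.

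The 3 C1q genes lie next to each other on the minus strand of chromosome 4 (build GRCm38, GENCODE M21), with C1qb at chr4:136880129-136886187, C1qc at chr4:136889804-136893065 and C1qa at chr4:136895917-136898803. C1qb and C1qc are 3616 bases apart, and C1qc and C1qa 2851 bases. On chromosome 17, C4b lies at chr17:34728380-34743882, Cfb at chr17:34856374-34862518 and C3 at chr17:57203970-57228136. C3ar1 lies at chr6:122847138-122856161, C5ar1 at chr7:16246743-16259540 and Cfp at chrX:20925454-20931555, all protein-coding genes on the minus strand. Only 85 bases separate Cfb from C2, and the annotated gene Gm20547 overlaps both, so the division of fragments between Cfb and C2 is uncertain. C4b has a near-identical copy, C4a, whose group means were at most 0.00996 FPKM, so its division from C4b is also uncertain.

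RefSeq promoter windows (GRCm38.p6, from 250 bases before to 50 bases after the annotated start, written in the direction of transcription) were found for 6 of the 9 genes. Those of the neighbours C1qb and C1qc are shown because these genes kept close proportions in every library, and that of C3 because it differed widely between tumours. Capitals mark the letters GAGGAA on either strand, the core bound by PU.1, a macrophage transcription factor.
C1qb, chr4:136886151-136886450: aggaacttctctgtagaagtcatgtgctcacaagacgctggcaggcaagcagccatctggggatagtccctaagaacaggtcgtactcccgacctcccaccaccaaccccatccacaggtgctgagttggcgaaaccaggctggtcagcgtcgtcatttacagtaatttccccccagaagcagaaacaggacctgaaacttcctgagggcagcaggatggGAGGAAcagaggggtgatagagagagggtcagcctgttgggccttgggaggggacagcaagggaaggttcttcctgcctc
C1qc, chr4:136892865-136893164: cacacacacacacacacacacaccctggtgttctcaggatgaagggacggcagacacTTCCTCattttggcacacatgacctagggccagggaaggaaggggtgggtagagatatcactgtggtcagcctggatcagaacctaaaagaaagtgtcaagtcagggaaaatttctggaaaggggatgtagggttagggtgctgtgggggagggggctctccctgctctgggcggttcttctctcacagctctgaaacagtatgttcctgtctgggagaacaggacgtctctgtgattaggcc
C3, chr17:57228087-57228386: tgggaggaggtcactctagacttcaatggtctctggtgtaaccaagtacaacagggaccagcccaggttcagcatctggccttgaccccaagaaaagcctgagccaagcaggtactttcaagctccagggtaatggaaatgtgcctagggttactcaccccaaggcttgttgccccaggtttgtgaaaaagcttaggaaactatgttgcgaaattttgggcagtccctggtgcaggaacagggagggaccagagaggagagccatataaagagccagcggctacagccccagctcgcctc
The match in C1qb began at position -30 from the start, and the match in C1qc lay on the other strand from position -193. Cfp held 2 such matches, and 28.3% of 32851 promoters of the same length held at least 1. The letters GAAANNGAA of an interferon response element, present in 8.56% of promoters, were found in C5ar1 alone among the 6. The letters TGCTGAC of a Maf site (4.67% of promoters), TTCNNNGAA of the GAS element (8.30%), TTGCNNCAA of C/EBP (2.08%) and an NF-kB motif (5.61%) were in none of the 6 windows, on either strand. These matches describe the letters of the windows only.

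Expression was given as FPKM, fragments scaled to transcript length and to the mapped fragments of the library, which allows levels of different genes to be compared within a library. Libraries summed to 614875 to 815591 FPKM, with 10445 to 11103 genes at 1 FPKM or more. B16F10 RFP- number 12 stood apart with the highest sum. Judged by the lowest non-zero values, libraries from B16F10 were shallower: 1 read stood for an FPKM value 3.02 to 3.62 times that in MC38 RFP- number 2, the deepest library. Low B16F10 values are therefore less precise. Arg1 followed the gate, with means of 724 FPKM in B16F10 RFP+ against 81.5 in RFP-, and 473 in MC38 RFP+ against 51.7 in RFP-. Markers of the sorted cells, 15 macrophage core genes such as Csf1r and Adgre1 (the F4/80 gene), summed to 5724 to 14534 FPKM over the 6 B16F10 libraries and to 29351 to 38754 over the 6 MC38 libraries. By group mean most of these sums came from Lyz2 (6225 FPKM in B16F10 RFP+ and 18156 in MC38 RFP+) and Ctss (1210 and 7567). Csf1r had 117 and 574 FPKM in the same groups, and Adgre1 91.2 and 392. The 8 melanocytic genes, all in the tables, summed to 8146 to 10711 FPKM in B16F10 libraries and 10.9 to 19.2 in MC38 libraries. In such bulk samples fewer cells of a type and less RNA per cell cannot be told apart.

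C1q transcripts were the most abundant of the 9 genes in all 12 libraries, always in the order C1qb, C1qc, C1qa. C1qa, the A chain, stood at 752, 313 and 483 FPKM in B16F10 RFP+ numbers 12, 11 and 3, and at 1303, 384 and 623 in RFP- with the same numbers. In MC38 numbers 1, 2 and 3 it was far more even, at 2138, 2143 and 2401 FPKM in RFP+ and 1989, 2158 and 2243 in RFP-. C1qb, the B chain, had 2346, 1034 and 1911 FPKM in B16F10 RFP+ and 3979, 1219.6 and 2203 in RFP-. Its MC38 values were 6734, 6910.4 and 7212 FPKM in RFP+ and 6519, 6971 and 6763 in RFP-, which made it the 9th or 10th most abundant of all genes, against ranks 13 to 78 in B16F10.

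C1qc, the C chain, had 1623, 668 and 1182 FPKM in B16F10 RFP+ and 2787, 809 and 1387 in RFP-. It had 4408, 4236 and 4615 FPKM in MC38 RFP+ and 4193, 4361 and 4340.4 in RFP-. Within B16F10 the number 12 libraries were the highest and the number 11 libraries the lowest for all 3 chains, in both gates. Group SDs of C1qb were 37.9% of the mean in B16F10 RFP+ and 56.7% in RFP-, but 3.47% in MC38 RFP+ and 3.35% in RFP-. Despite these swings the chains kept close proportions. Over the 12 libraries the ratio of C1qb to C1qc was 1.43 to 1.63, that of C1qb to C1qa 3.00 to 3.96 and that of C1qc to C1qa 1.92 to 2.45. Together they made up 0.320% to 0.989% of all FPKM in B16F10 libraries and 1.96% to 2.06% in MC38 libraries.

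The convertase components C4b and C3 were far lower than C1q in each group, as was Cfb in B16F10. C4b, the mouse C4 gene whose product joins C2 in the classical C3-cleaving enzyme, had 7.36, 6.63 and 6.23 FPKM in B16F10 RFP+ and 12.5, 5.09 and 8.83 in RFP-. It had 19.2, 22.0 and 32.6 FPKM in MC38 RFP+ and 24.6, 25.0 and 33.9 in RFP-. C3, the protein on which all pathways converge, had 4.95, 4.52 and 4.39 FPKM in B16F10 RFP+ and 2.43, 5.42 and 7.03 in RFP-. In MC38 it had 59.1, 83.4 and 51.6 FPKM in RFP+ and 42.4, 50.2 and 48.3 in RFP-. Cfb had 22.0, 15.03 and 17.97 FPKM in B16F10 RFP+, each below its own-numbered RFP- library at 34.5, 21.9 and 31.0. In MC38, Cfb reached 359, 347 and 572 FPKM in RFP+ and 346, 342 and 594 in RFP-, with number 3 the highest in both gates. Cfp was the member closest between tumours, with 216, 122 and 239 FPKM in B16F10 RFP+, 292, 113 and 252 in B16F10 RFP-, 245, 379 and 279 in MC38 RFP+ and 238, 388 and 270.1 in MC38 RFP-.

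Both peptide receptors were well expressed. C3ar1 had 124, 75.8 and 107 FPKM in B16F10 RFP+ and 98.7, 50.8 and 111 in RFP-, and 285, 226 and 339 in MC38 RFP+ and 239, 183 and 289 in RFP-. C5ar1 had 224, 139.5 and 220.1 FPKM in B16F10 RFP+ and 193, 96.7 and 198 in RFP-, and 340.2, 357 and 387 in MC38 RFP+ and 269, 328 and 302 in RFP-. For both receptors number 11 was the lowest B16F10 library in each gate, as for C1q.

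By mean level in B16F10 RFP+ the order after the C1q chains was C5ar1, Cfp, C3ar1, Cfb, C4b and C3, and in B16F10 RFP- it was Cfp, C5ar1, C3ar1, Cfb, C4b and C3. In both MC38 gates it was Cfb, C5ar1, Cfp, C3ar1, C3 and C4b. Cfb thus ranked 7 of 9 in every B16F10 library and 4 to 6 in MC38. Neighbours whose ranges overlapped were C5ar1, Cfp and C3ar1 in each B16F10 group, C4b and C3 in B16F10 RFP-, Cfb, C5ar1, Cfp and C3ar1 in MC38 RFP+, and C5ar1, Cfp and C3ar1 in MC38 RFP-. The ranges of C1qb, C1qc and C1qa also overlapped in both B16F10 groups, although the order held within each library. The ratio of Cfb to Cfp was 0.0750 to 0.194 in B16F10 libraries and 0.882 to 2.199 in MC38 libraries.

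**Figure D1:**
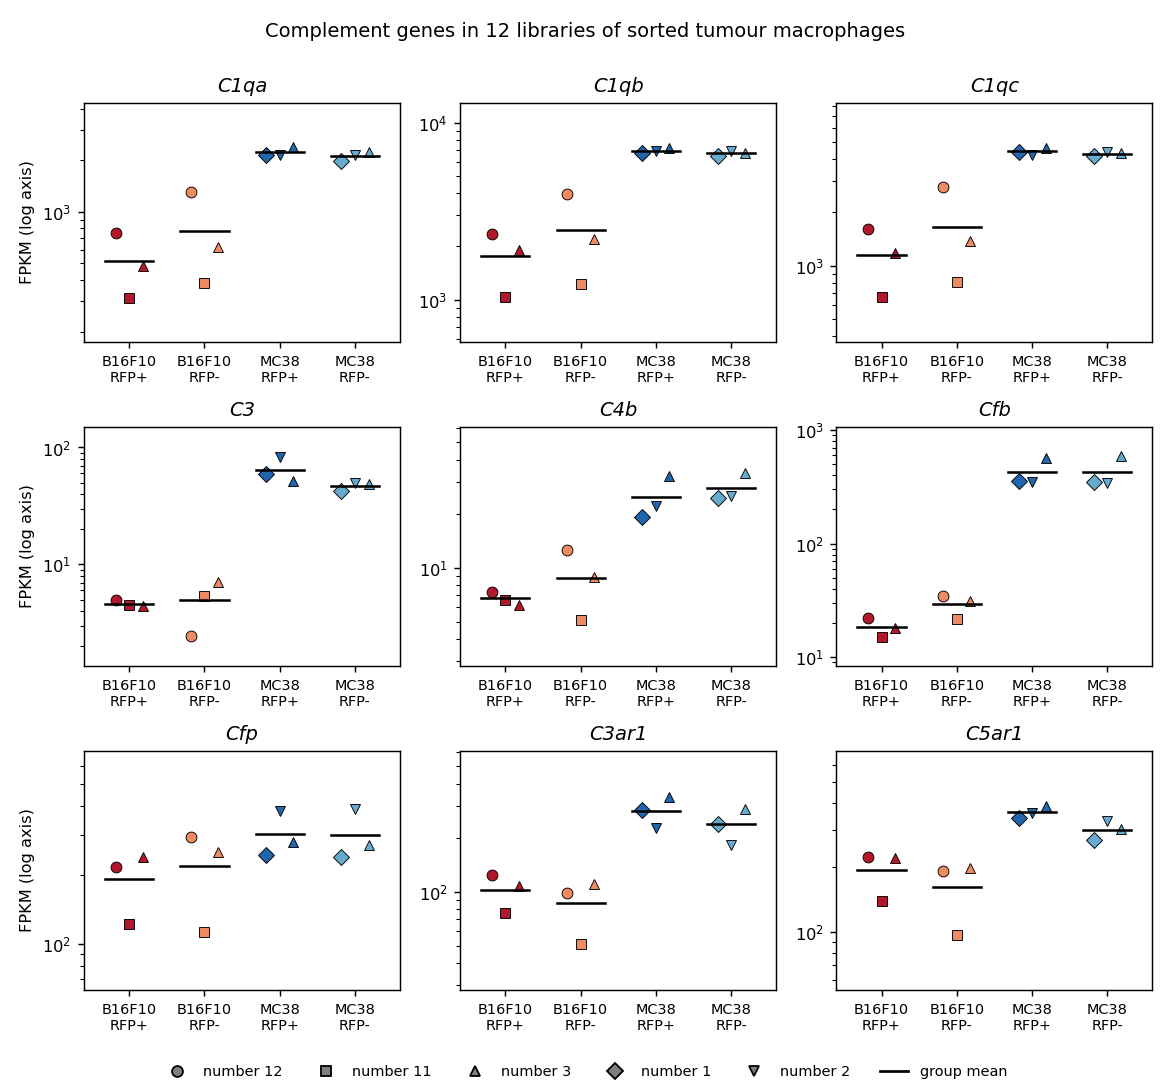
FPKM of each gene on a log axis in the 12 libraries, by tumour and gate. Symbols stand for title numbers and bars for group means of 3 libraries; all MC38 points of the C1q genes, C3, C4b, Cfb, C3ar1 and C5ar1 lie above all B16F10 points, whereas those of Cfp overlap.

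The first question was how complement differed between RFP+ and RFP- macrophages of B16F10 tumours. Differences were small, and Cfb was the only member to pass the threshold as deposited, and only with the numbered pairs as a block. It averaged 18.3 ± 3.49 FPKM in RFP+ and 29.1 ± 6.53 in RFP- (SD, n = 3 each) and was lower in RFP+ in 3 of 3 numbered pairs, with log2 differences of -0.63, -0.51 and -0.76. The mean of these was -0.63 ± 0.26 (SE) without pairing and missed the threshold (limma on log2(FPKM + 1), adjusted p = 0.490). With the title number as a block Cfb fell in RFP+ (SE 0.11, limma adjusted p = 0.0155). Leaving out pair 12, which holds the library that stood apart, gave -0.63 with the block (limma adjusted p = 0.0104).

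C1q also leaned lower in RFP+, without passing. The log2 differences were -0.48 ± 0.37 for C1qa, -0.40 ± 0.36 for C1qb and -0.43 ± 0.37 for C1qc (SE), all 3 lower in 3 of 3 pairs. Adjusted p-values in limma were 0.591 (C1qa), 0.642 (C1qb) and 0.632 (C1qc), and with pairing 0.124, 0.229 and 0.194. Pair 12 showed the widest gap, -0.79 for C1qa against -0.30 in pair 11 and -0.37 in pair 3. Without RFP- number 12 and with no block, the difference was -0.014 for C1qa and turned to 0.025 for C1qb and 0.036 for C1qc. That fit kept RFP+ number 12, the highest of its gate for all 3 chains. Within pairs 11 and 3 the differences were -0.24 and -0.21 for C1qb, and -0.27 and -0.23 for C1qc.

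C5ar1 had a log2 difference of 0.30 ± 0.25, higher in RFP+ in 3 of 3 pairs, and C3ar1 one of 0.28 ± 0.28, higher in 2 of 3 pairs (SE, limma adjusted p = 0.622 and 0.675). With no block, both turned negative without RFP- number 11, the lowest library, at -0.039 for C5ar1 and -0.060 for C3ar1. That fit kept RFP+ number 11, the lowest of its gate for both receptors. Within pairs 12 and 3 the differences were 0.21 and 0.15 for C5ar1, and 0.33 and -0.052 for C3ar1. Cfp (-0.13), C4b (-0.27) and C3 (-0.00068) showed no steady direction over the pairs. The C3 pairs spread from 0.79 in number 12 to -0.58 in number 3. Of the 9 members 0 passed without the block in limma, where 0.178% of the 11808 genes passed. At an unadjusted p under 0.05 there was 1 member (Cfb), where 1159 of the 11808 genes were. With the block 1 member passed, where 1.36% of all genes did, and 6 members had an unadjusted p under 0.05, where 2170 of all genes had. Ranges of the RFP+ and RFP- groups overlapped for all 9, while 11.9% of all genes had separate ranges. The median log2 difference was -0.27 over the members and -0.01 over all genes tested.

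Markers of other cell types also had unequal sums in the B16F10 gates. The 8 dendritic cell genes, all in the tables and none at 0 throughout, summed to 13.4 to 20.6 FPKM in RFP+ and 29.2 to 54.0 in RFP-. Neutrophil genes, 8 of 9 in the tables, summed to 301 FPKM in RFP+ number 3 and 737 in RFP- number 3. In the other 4 B16F10 libraries they summed to 19.7 to 116. By group mean most came from S100a8 (74.3 FPKM in RFP+ and 185 in RFP-) and S100a9 (40.1 and 84.0). Mpo, Elane, Ngp and Camp had means of at most 0.66 FPKM in either gate. The part of these cell types in the differences was not tested.

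In MC38 tumours no member passed, with or without the block. C3 had separate ranges, at 51.6 to 83.4 FPKM in RFP+ and 42.4 to 50.2 in RFP-, a difference of 0.43 ± 0.27 on the log2 scale (SE, adjusted p = 1.0 in limma, 0.962 when paired). C5ar1 also had separate ranges, 340.2 to 387 FPKM in RFP+ and 269 to 328 in RFP-, differing by 0.27 ± 0.25 on the log2 scale (SE, adjusted p = 1.0 in limma, 0.757 when paired). These are 2 of 9 members with all RFP+ libraries above all RFP- libraries, where 6.33% of all genes were. C3ar1 was higher in RFP+ in 3 of 3 pairs (log2 0.26 ± 0.28, SE). The C1q chains differed by 0.064 (C1qa), 0.042 (C1qb) and 0.040 (C1qc), Cfb by 0.0062 and Cfp by 0.018, all smaller than their SE. These SEs come from a spread pooled over both tumours. For C1qb the log2 SDs were 0.0499 in MC38 RFP+ and 0.0485 in MC38 RFP-, against 0.614 and 0.853 in B16F10. C4b was lower in 3 of 3 pairs (log2 -0.19 ± 0.27, SE). Over all genes 0.0254% passed without the block and 0.440% with it. At an unadjusted p under 0.05 there were 0 members and 396 of the 11808 genes without the block, and 1 member (C5ar1) and 719 genes with it. The 8 dendritic cell genes were lower in sum in RFP+ in 3 of 3 MC38 pairs, at 27.6 to 50.5 FPKM in RFP+ and 45.01 to 87.2 in RFP-. The 6 NK cell genes summed to 13.4 to 21.7 FPKM in RFP+ and 25.7 to 32.01 in RFP-. That gap came mostly from Klrk1, with means of 14.9 FPKM in RFP+ and 25.1 in RFP-. Ncr1 averaged 0 in RFP+ and 0.10 in RFP-, and Prf1 0.28 in RFP+ and 0.18 in RFP-. The part of other cell types in the MC38 values was not tested.

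Taking the mean of the gate difference over both tumours, 0 of 9 members passed in limma, and 0 had an unadjusted p under 0.05, where 880 of the 11808 genes had. With the block 0 passed and 4 had an unadjusted p under 0.05 (C1qa, Cfb, C3ar1 and C5ar1), where 1568 of all genes had. Over all genes 0.449% passed without the block and 1.92% with it. C5ar1 was higher in RFP+ in all 6 pairs (log2 0.28 ± 0.18 SE, adjusted p = 0.741 in limma, 0.149 when paired). C3ar1 was higher in 5 of the 6 (log2 0.27 ± 0.20 SE). Cfb had a mean log2 difference of -0.31 ± 0.18 SE (adjusted p = 0.734 in limma, 0.0736 when paired). Without pair 12 it passed with the block (limma adjusted p = 0.0239).

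Whether the gate difference itself differed between tumours was tested by its interaction, B16F10 minus MC38. No member passed and 0.00% of all genes did, with 455 genes and no member at an unadjusted p under 0.05. With the block 0.0339% of all genes passed and again no member, while 3 members (C1qa, C1qc and Cfb) and 1009 of the 11808 genes had an unadjusted p under 0.05. Cfb had the widest value, -0.64 ± 0.36 (SE, adjusted p = 0.895 in limma, 0.392 when paired). The C1q chains followed at -0.55 (C1qa), -0.44 (C1qb) and -0.47 (C1qc). The fall of Cfb in B16F10 is therefore not shown to differ from its near-zero value in MC38.

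**Figure D2:**
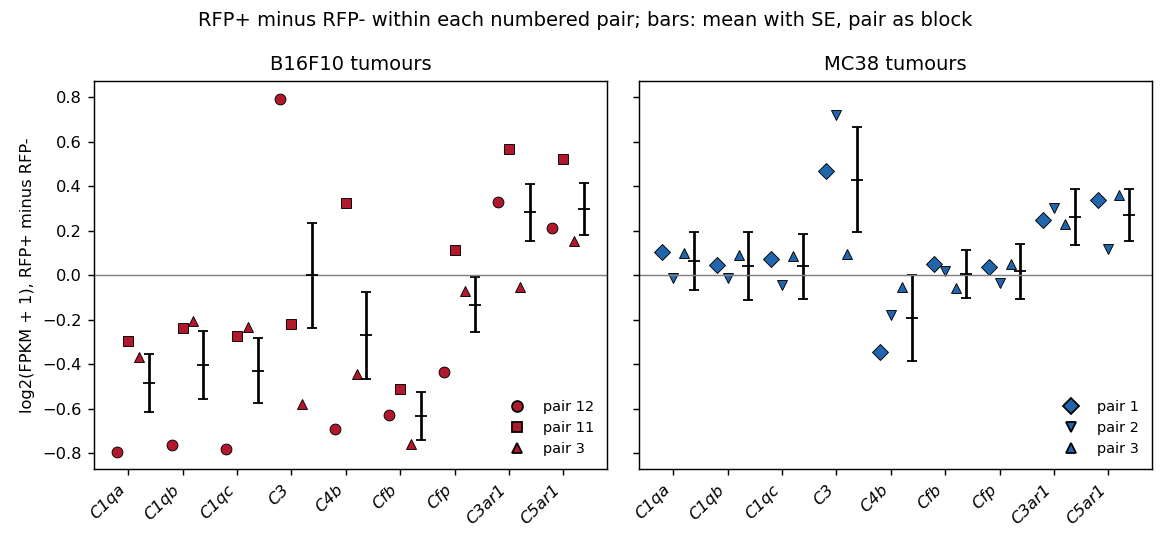
Difference in log2(FPKM + 1), RFP+ minus RFP-, for each numbered pair of libraries, B16F10 on the left and MC38 on the right. Symbols are pairs, and bars give the mean and SE with the pair as a block; Cfb and the C1q genes lie below 0 in all 3 B16F10 pairs and near 0 in MC38, and C5ar1 lies above 0 in all 6 pairs.

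The difference between tumours was of another order. In RFP+ macrophages 8 of 9 members were lower in B16F10 than in MC38, where 20.0% of all genes passed as lower and 35.2% as higher. Every B16F10 library lay below every MC38 library for all 9 members, which held for 24.8% of all genes. In RFP- macrophages 8 of 9 were again lower in B16F10, where 21.9% of all genes passed as lower and 37.8% as higher. Every B16F10 library lay below every MC38 library for 8 of 9, all but Cfp, against 22.8% of all genes. Quantile normalization evened the split of all genes past the threshold, to 3365 higher and 3014 lower in RFP+ and 3564 higher and 3291 lower in RFP-, against 4159 and 2364 in RFP+ and 4467 and 2584 in RFP- as deposited. The median log2 difference over the members was -2.02 in RFP+ and -1.61 in RFP-, against 0.23 over all genes in each gate. The tumour line and any batch of sorting or library preparation that goes with it cannot be told apart.

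Factor B differed the most as deposited, but the division of fragments between Cfb and C2 is uncertain. C2 went the other way, with means of 26.9 FPKM in B16F10 RFP+ and 1.03 in MC38 RFP+. The size and rank of the Cfb difference may depend on that division, which was not tested. Cfb averaged 18.3 ± 3.49 FPKM in B16F10 RFP+ and 426 ± 127 in MC38 RFP+ (SD, n = 3 each), which is 21.7-fold lower on the tested scale (log2 -4.44, SE 0.26, adjusted p = 2.2e-08 in limma). In RFP- it averaged 29.1 ± 6.53 FPKM in B16F10 and 427 ± 144 in MC38 (log2 -3.80 ± 0.26, limma adjusted p = 7.8e-08). C3 came next, at 4.62 ± 0.29 FPKM in B16F10 RFP+ and 64.7 ± 16.6 in MC38 RFP+ (SD, n = 3 each), or 11.5-fold lower (log2 -3.52, SE 0.27, adjusted p = 2.5e-07 in limma). In RFP- it averaged 4.96 ± 2.33 FPKM in B16F10 and 47.0 ± 4.02 in MC38 (log2 -3.09 ± 0.27, limma adjusted p = 7.1e-07). C4b was lower by about as much in both gates, with log2 differences of -1.69 in RFP+ and -1.62 in RFP- (SE 0.27, limma adjusted p = 0.00015 and 0.0002).

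The C1q chains fell together in B16F10. C1qa averaged 516 ± 222 FPKM in B16F10 RFP+ and 2228 ± 150.3 in MC38 RFP+ (SD, n = 3 each), differing by a log2 of -2.197 with an SE of 0.37 (adjusted p = 0.00022 in limma). C1qb differed by -2.06 and C1qc by -2.02 in RFP+. In RFP- the values were -1.65 for C1qa, -1.61 for C1qb and -1.55 for C1qc (limma adjusted p from 0.0017 to 0.0029). The receptors differed less. C3ar1 differed by a log2 of -1.47 in RFP+ and -1.49 in RFP-, and C5ar1 by -0.92 in RFP+ and -0.95 in RFP- (limma adjusted p from 0.00051 to 0.0068). Cfp did not pass, at -0.68 ± 0.34 in RFP+ and -0.53 ± 0.34 in RFP- (SE, limma adjusted p = 0.108 and 0.197), with 122 to 239 FPKM in B16F10 RFP+ and 245 to 379 in MC38 RFP+. It did pass in RFP+ when the RFP+ groups were fitted alone (limma adjusted p = 0.0476) or without B16F10 RFP- number 11 (0.0373).

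Macrophage core genes were lower in B16F10 libraries as well, by a median log2 of -2.01 in RFP+ and -2.20 in RFP-, with 14 of 15 past the threshold in each gate. In RFP+ they spread from -4.16 for Cx3cr1 to -0.58 for Cd68, and in RFP- from -3.44 to -0.39 for the same genes. C1qa, C1qb, C1qc, C4b, C3ar1, C5ar1 and C3 fell within this spread in both gates, Cfp within it too, and Cfb below it. The place of Cfb may depend on how its fragments were divided from those of C2. When each library was scaled by the median of its core genes, the median of all genes moved to a log2 difference of 1.93 in RFP+ and 1.999 in RFP-, so 84.9% and 84.1% of all genes then passed as higher in B16F10 and 2.52% and 2.51% as lower. On that scale 2 members were lower and 3 higher in B16F10 in each gate. The same scaling moved the median of all genes to -0.16 in the B16F10 gate comparison and -0.11 over both tumours.

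Cfb remained lower per core gene, at -2.45 ± 0.26 in RFP+ and -1.72 ± 0.26 in RFP- (SE, limma adjusted p = 4.5e-07 and 1.3e-05). C3 did too, at -1.64 ± 0.38 in RFP+ and -1.15 ± 0.38 in RFP- (limma adjusted p = 0.0007 and 0.0094). The Cfb values on this scale carry the same uncertainty of division from C2. C1q was near par in RFP+, at -0.16 for C1qa, -0.022 for C1qb and 0.014 for C1qc. In RFP- it stood at 0.47 for C1qa, 0.50 for C1qb and 0.56 for C1qc, past the threshold for none (limma adjusted p from 0.0728 to 0.131). C4b did not pass either, at 0.19 in RFP+ and 0.36 in RFP-. Cfp (1.35 in RFP+ and 1.58 in RFP-), C5ar1 (1.11 and 1.16) and C3ar1 (0.55 and 0.61) were higher per core gene in B16F10 (limma adjusted p from 2.5e-05 to 0.0355). Relative to the median of all genes, all 9 members were lower in B16F10 on both scales, from -0.42 for Cfp in RFP- to -4.38 for Cfb in RFP+ on the core scale. Core scaling divides each library by a single factor, so it leaves such relative values nearly unchanged. The likeness of both scales here is therefore no separate evidence.

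**Figure D3:**
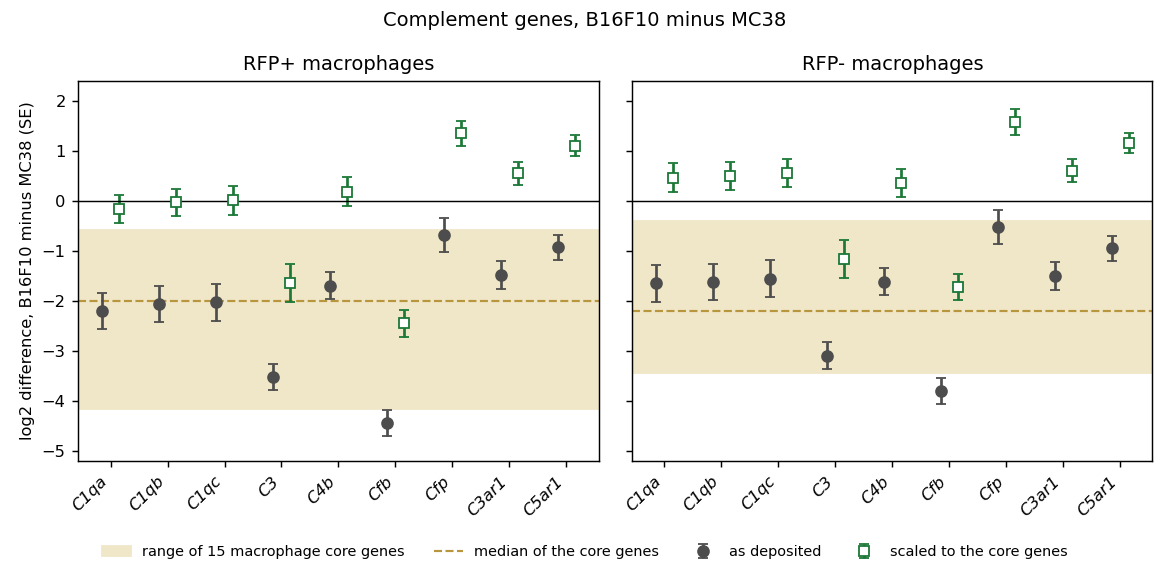
Log2 difference, B16F10 minus MC38, with its SE, for each gene in RFP+ (left) and RFP- macrophages (right), as deposited (filled circles) and scaled to the core genes (open squares). The shaded band is the range and the dashed line the median of the 15 macrophage core genes as deposited; Cfb lies below the band, and after scaling Cfb and C3 stay below 0 while Cfp, C3ar1 and C5ar1 lie above it.

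C1q and these markers were set side by side in the B16F10 libraries. Core genes summed to 7203 FPKM in B16F10 RFP+ number 11 and 5724 in RFP- number 11, the lowest of the 12 libraries, and these were also the lowest in summed C1q, at 2015 and 2412 FPKM. RFP+ number 12 and RFP- number 12 had 4721 and 8069 FPKM of C1q, with 14534 and 10780.2 FPKM of core genes. RFP+ number 3 and RFP- number 3 had 3575 and 4213 FPKM of C1q, with 12076 and 10664 FPKM of core genes. RFP- numbers 12 and 3 had nearly equal core sums and unequal C1q. Number 12 had a lower core sum but more C1q in RFP- than in RFP+, and RFP- number 12 had the highest total FPKM, 815591. Core genes differed in direction between the B16F10 gates, and Lyz2 and Ctss made up most of the sum of their means. Lyz2 averaged 6225 FPKM in RFP+ and 3876 in RFP-, and Ctss 1210 and 826, while Csf1r had 117 and 141 and Spi1 70.7 and 97.2. The cause of the C1q differences was not tested. Melanocytic genes were at 10703 and 10711 FPKM in the number 11 libraries, the highest of the 12, at 8281 and 9608 in RFP+ and RFP- number 12, and at 8146 and 8174 in RFP+ and RFP- number 3. The part of melanocytic RNA in the tumour difference was not tested. Fibroblast genes, 9 of 9 in the tables, also separated the tumours, at 2.28 to 3.71 FPKM in B16F10 and 48.3 to 65.7 in MC38. That MC38 signal came mostly from Dcn (38.03 in RFP+ and 34.2 in RFP-) and Col3a1 (20.3 and 18.7), while Col1a1 and Col1a2 were below 0.1 FPKM in both MC38 groups and Fap was at 0. Sums also lay apart for NK cell genes (0.869 to 3.13 FPKM in B16F10 and 13.4 to 32.01 in MC38), 6 endothelial genes (3.07 to 4.82 in B16F10 and 9.96 to 18.8 in MC38) and 8 epithelial genes (0.797 to 2.52 in B16F10 and 6.36 to 12.4 in MC38). These MC38 sums came mostly from Klrk1 (mean 14.9 FPKM in RFP+ and 25.1 in RFP-), Pecam1 (12.1 and 11.4) and Cdh1 (9.45 and 9.62). Epcam, Krt8 and Krt18 had means of at most 0.24 FPKM and Cdh5 of at most 0.13 in the MC38 groups. Vwf went the other way, at 1.97 and 2.34 FPKM in B16F10 RFP+ and RFP- against 0.30 and 0.49 in MC38. Fibroblasts are known to make C3, C4 and factor B, and whether they or other cells took part was not tested.

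**Figure D4:**
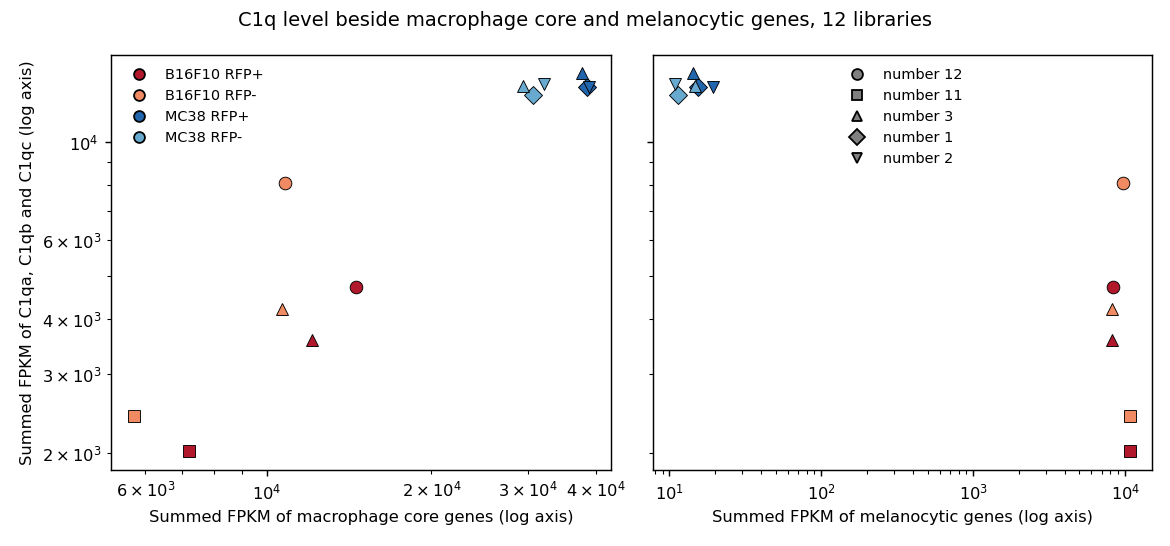
Summed FPKM of C1qa, C1qb and C1qc in each library against the summed FPKM of 15 macrophage core genes (left) and 8 melanocytic genes (right), all on log axes. The B16F10 libraries spread from 2015 to 8069 FPKM of C1q, and the MC38 libraries sit together between 12700.4 and 14228 FPKM at the high end for core genes and the low end for melanocytic genes.

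Of 50 other complement genes, listed by role, 19 passed the filter on low values. Those left out include C6, C7, C8a, C8b, C9 and Hc (the C5 gene) of the terminal pathway, factor D (Cfd), and the lectin pathway proteases Masp1 and Masp2, whose group means were all below 1 FPKM. In B16F10 RFP+ against MC38 RFP+, 4 of the 19 were higher and 10 lower as deposited, with a median of -0.59. In RFP-, 4 were higher and 9 lower, with a median of -0.11. On the core scale 13 were higher and 2 lower in RFP+, and 11 higher and 3 lower in RFP-, where 84.9% of all genes were higher in RFP+ and 84.1% in RFP-. The list's median on that scale was 1.18 in each gate, against 1.93 over all genes in RFP+ and 1.999 in RFP-.

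C2, whose product pairs with C4 and which lies beside Cfb, went the other way from Cfb. It had 17.0, 38.4 and 25.2 FPKM in B16F10 RFP+ numbers 12, 11 and 3, and 1.399, 1.29 and 0.414 in MC38 RFP+ numbers 1, 2 and 3. It averaged 26.9 ± 10.8 FPKM in B16F10 RFP+ and 1.03 ± 0.54 in MC38 RFP+ (SD, n = 3 each), which gave a log2 difference of 3.74 with an SE of 0.31 (adjusted p = 4.9e-07 in limma). In RFP- it averaged 27.3 ± 8.32 FPKM in B16F10 and 1.07 ± 0.32 in MC38 (log2 3.75 ± 0.31). The ratio of C2 to Cfb was 0.609 to 2.55 in B16F10 libraries and at most 0.00404 in MC38 libraries. Since fragments of C2, Cfb and Gm20547 may have been divided differently, the pair is reported as uncertain. Also higher in B16F10 RFP+ were the regulator clusterin (Clu, log2 1.83), the C8 gamma chain (C8g, 0.98) and C1qbp (1.41), named for its binding of C1q and found mainly in mitochondria. In RFP- they were higher by 1.95 for Clu, 0.93 for C8g and 1.47 for C1qbp.

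The receptors of C3 fragments were among the lower genes. In B16F10 RFP+ against MC38 RFP+, Itgam and Itgb2, which form complement receptor 3, differed by -1.86 and -2.12, and Itgax, which with Itgb2 forms complement receptor 4, by -2.93. In RFP- the values were -2.76 for Itgam, -2.41 for Itgb2 and -2.86 for Itgax. Lair1, an inhibitory receptor reported to bind C1q, differed by -2.94 in RFP+ and -2.97 in RFP-. The membrane regulator Cr1l (Crry) differed by -0.81 in RFP+ and -1.003 in RFP-. C5ar2, the other C5a receptor, differed by -1.08 and -1.01, Lrp1 by -1.22 and -1.09, and Cd93 by -0.80 and -0.69. C1ra, a protease of the C1 complex, passed as lower in RFP+ (-0.59, limma adjusted p = 0.0174) and not in RFP- (0.13), but the difference between these values did not pass (-0.72 ± 0.27 SE, limma adjusted p = 0.895). Calr, which binds C1q collagen tails, had 289.9 to 352 FPKM as group means and did not pass in either gate. On the core scale Lair1 (-0.95 in RFP+ and -0.89 in RFP-) and Itgax (-1.01 and -0.86) stayed lower in both gates and Itgam (-0.68) in RFP-, whereas C1ra, Cr1l, Lrp1 and Cd93 were higher in both and C5ar2 and Itgb2 did not pass. Itgam is itself 1 of the 15 core genes.

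Between gates, 0 of the 19 passed in limma without the block in either tumour or over both, where 4 had an unadjusted p under 0.05 in B16F10 (1159 of all 11808 genes), 1 in MC38 (396 of all) and 5 over both (880 of all). With the block these were 6 of 19 in B16F10 (2170 of all genes), 4 in MC38 (719 of all) and 8 over both (1568 of all). With the block Itgam rose in B16F10 RFP+, at 52.9 ± 11.6 FPKM against 29.5 ± 12.7 in RFP- (SD, n = 3 each; log2 0.88, limma adjusted p = 0.0068, against 0.280 without the block). Over both tumours and with the block, Itgam (log2 0.43, limma adjusted p = 0.0359) and Fcna, the mouse ficolin A of the lectin pathway (log2 1.02, limma adjusted p = 0.0364), were higher in RFP+. In MC38 alone Itgam averaged 193 ± 26.5 FPKM in RFP+ against 196 ± 16.9 in RFP- (SD, n = 3 each). It was higher in RFP+ in 1 of 3 MC38 pairs (log2 -0.022), so the positive mean over both tumours reflects the B16F10 value. The difference of the Itgam gate effect between tumours did not pass (0.90 ± 0.34 SE, limma adjusted p = 0.895, and 0.298 with the block). Fcna had 33.8, 7.64 and 35.0 FPKM in B16F10 RFP+ numbers 12, 11 and 3, against 10.997, 4.001 and 9.39 in RFP-. In MC38 it had 13.4, 21.1 and 8.05 FPKM in RFP+ numbers 1, 2 and 3, against 3.52, 17.0 and 7.995 in RFP-, so each of the 6 pairs leaned higher in RFP+.

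**Figure D5:**
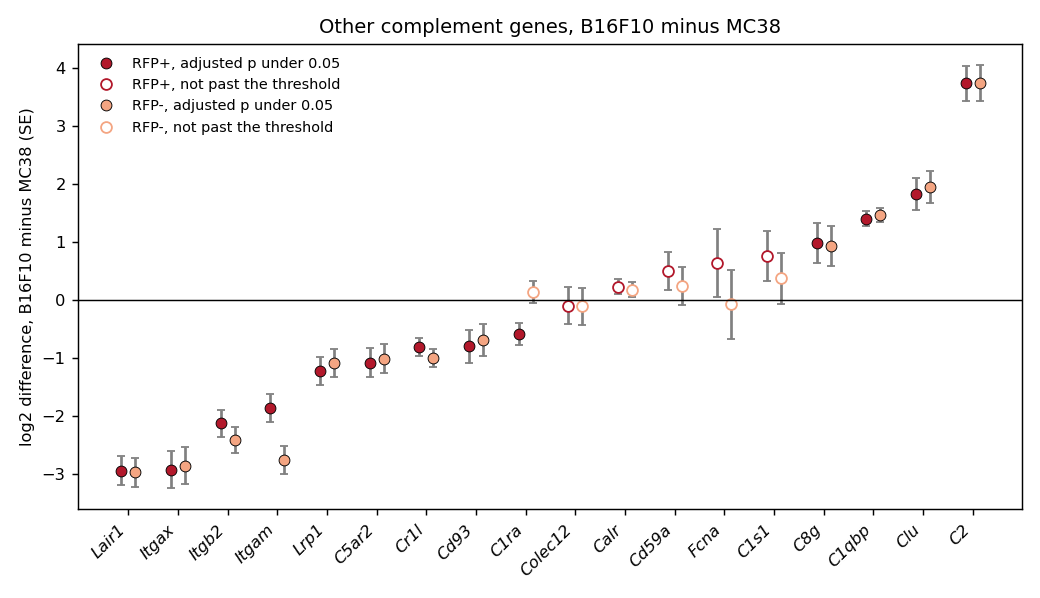
Log2 difference, B16F10 minus MC38, with its SE, as deposited, for the other complement genes that passed the filter, with 1 of the 19 not shown, sorted by the RFP+ value. Filled points passed the threshold; C2 lies highest, at 3.74 in RFP+ and 3.75 in RFP-, and Lair1 and Itgax lowest.

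Genes whose pattern over the 12 libraries was most like each member were ranked by Pearson's r of log2(FPKM + 1) among 7731 genes, as a description only, since the libraries share tumours, numbered pairs and purity. For the mean of the 3 C1q genes these were Spi1 (the PU.1 gene, itself one of the core genes), March2 and Cebpa, with r from 0.990 to 0.991. Within the 6 B16F10 libraries their r was 0.970 to 0.986, but within the 6 MC38 libraries, where C1q hardly varied, 0.151 to 0.236. For Cfb the nearest were Lpcat2 (r = 0.996), Ube2l6 and Klra2, with r of 0.869 to 0.948 within B16F10 and 0.707 to 0.985 within MC38. C3 was nearest to Ifi47, Smim3 and Tmem123 (r from 0.986 to 0.988), which fell to -0.147 to 0.0353 within MC38. C4b was nearest to Icosl, Stk40 and Ms4a6c, and Cfp to Khk (r = 0.959), Lrp10 and Rab3il1. C3ar1 was nearest to Slc7a8, Cd37 and Elmo1, and C5ar1 to Hacd4, Ctsa and Mertk (r from 0.978 to 0.992), of which Mertk is a core gene.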

How the data were processed

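Bulk RNA-seq was measured in 12 libraries of sorted macrophages, 3 in each of 4 groups named by the labels. The values are FPKM as the authors deposited them, per the file headers. Per the labels' protocols RNA was extracted with TRI Reagent, and cDNA and libraries were made with SMART-Seq HT and Nextera XT kits. Per the submitters' processing notes Bowtie2 2.2.8, TopHat2 2.1.1, Cuffdiff 2.2.1 and SAMtools 0.1.18 served with build mm10. Which annotation, strand setting and scaling of libraries were chosen is not given in the sources used here. No fragment counts entered the analysis, which therefore has no count model, and depth is known only relative to other libraries.

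Values were analysed as log2(FPKM + 1) for the 11808 genes that reached 1 FPKM in 3 or more libraries. A single limma 3.58.1 model in R 4.3.3 held the 4 group means and 8 residual degrees of freedom, with variances moderated by eBayes along a mean trend. Each gene's spread was pooled over the 4 groups, so an SE does not show the spread of the compared groups alone. Tests were two-sided, with Benjamini-Hochberg adjustment over all 11808 genes and a threshold of 0.05. The scripts were tested on simulated data. P-values measure only how libraries of a group vary, which may be technical, since an n of 3 is stated but libraries are not tied to animals.

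Deviations from group means correlated across genes at r = 0.228 to 0.443 in all 6 pairs of libraries with the same title number, and at -0.306 to 0.0178 for different numbers. The number was therefore taken as pairing the gates, and the fit with it as a block (4 residual degrees of freedom, or a random block with a correlation of 0.291 between tumours) is printed beside the results it altered. Other alternatives were pseudocounts of 0.1 and 5, no filter or 5 FPKM, quantile, upper-quartile and macrophage core scaling, the compared groups alone, a log2 difference of at least 1, and each library left out. Scaling fits with the block and the block without the B16F10 pair 12 were added after seeing the data.

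The members and lists were chosen with earlier results of these data known. All 9 members were named in each comparison. Of the other complement genes, those past the threshold with or without the block were named, and otherwise those with a mean of at least 50 FPKM in a group. For 1 of these genes, included in the counts, values are not reported here. Likeness used genes with a mean of at least 5 FPKM. Python 3.11.15, numpy 2.4.6, pandas 2.3.3 and matplotlib 3.10.9 made the descriptions and plots.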

Additional observations from a re-analysis of the deposited data

How the results depend on the processing

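Precision is limited by 3 libraries a group and, for low genes such as C3 and C4b in B16F10, by shallower libraries. With the replicate block the members past the threshold in the B16F10 gate comparison became 1 (Cfb), also without pair 12 and after quantile normalization, and 2 with core scaling (Cfb, and C1qa at -0.65). Over both tumours the block gave 0, but 1 with core scaling, without pair 12 (Cfb in each) and with quantile normalization (C5ar1). Between tumours the 8 members past the threshold in each gate became 5 with core scaling, with or without the block. Of these 5, only Cfb and C3 stayed lower in B16F10. C3ar1 and C5ar1 passed in the other direction, as higher, and so did Cfp, which had not passed as deposited. The block changed no other call of a member. Cfp passed between tumours with the block without pair 12 and with quantile normalization (log2 -0.79 and -0.71 in RFP+, -0.79 and -0.75 in RFP-). The cause of these changes was not tested. Over left-out libraries the counts were 0 in all gate comparisons, 8 to 9 between tumours in RFP+ and 8 in RFP-.

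Among all genes, the B16F10 gate count of 21 was 160 with the block, 10 with a pseudocount of 0.1, 7 with no filter, 5 with the groups alone and 4 to 90 over left-out libraries. The MC38 count of 3 was 52 with the block, 11 with a pseudocount of 5, 6 after quantile normalization, 8 with the groups alone, 1 with core scaling and 1 to 8 over left-out libraries. The count over both tumours, 53, was 227 with the block, 13 with no filter, 33 with core scaling and 19 to 80 over left-out libraries. The count of 0 for the difference of the gate effect was 4 with the block and 2 with no filter. Between tumours in RFP+ the count of 6523 was 10318 with core scaling.

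Signs turned as follows. Core scaling, with or without the block, gave -0.021 (C1qa), -0.043 (C1qb), -0.045 (C1qc), -0.078 (Cfb) and -0.067 (Cfp) in the MC38 gate comparison, and -0.056 (C3ar1) and -0.054 (C5ar1) for the difference of gate effects. Between tumours it gave 0.014 (C1qc), 0.19 (C4b), 1.35 (Cfp), 0.55 (C3ar1) and 1.11 (C5ar1) in RFP+, and 0.47 (C1qa), 0.50 (C1qb), 0.56 (C1qc), 0.36 (C4b), 1.58 (Cfp), 0.61 (C3ar1) and 1.16 (C5ar1) in RFP-. Quantile normalization, with or without the block, gave -0.034 (C1qa), -0.022 (Cfb) and -0.060 (Cfp) in the MC38 gate comparison and 0.040 (Cfp) for the difference. C3 in the B16F10 gate comparison was 0.023 with a pseudocount of 0.1 and 0.036 with upper-quartile scaling. The block without pair 12 gave Cfp 0.020 in B16F10, 0.019 over both tumours and 0.0027 for the difference, C4b 0.13 and C3ar1 -0.0029 for the difference.

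Over left-out libraries, each fitted with no block, the sign turned within these ranges. In the B16F10 gate comparison they were -0.83 to 0.025 (C1qb), -0.86 to 0.036 (C1qc), -0.36 to 0.26 (C3), -0.55 to 0.17 (Cfp), -0.060 to 0.50 (C3ar1) and -0.039 to 0.52 (C5ar1). In MC38 they were -0.23 to 0.27 (Cfb) and -0.16 to 0.22 (Cfp). Over both tumours they were -0.41 to 0.025 (C1qa), -0.39 to 0.034 (C1qb), -0.41 to 0.038 (C1qc) and -0.27 to 0.092 (Cfp). For the difference of gate effects they were -0.39 to 0.19 (C4b), -0.57 to 0.15 (Cfp), -0.32 to 0.23 (C3ar1) and -0.31 to 0.25 (C5ar1).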
